A study of Mus musculus with 40 samples.

Results

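Stat3, Stat5a, Stat5b, Cish, Socs1, Socs2, Socs3, Pim1 and Pim2 were chosen by name as the STAT factors, their feedback inhibitors and the PIM kinases of cytokine signalling in T cells. All 9 were measured on both array types of the series, out of 18606 genes in all and 16684 genes on both. Interleukin-2 (IL-2) binds a receptor made of Il2ra, Il2rb and Il2rg, and the kinases JAK1 and JAK3 then phosphorylate STAT5A and STAT5B, which enter the nucleus and switch on target genes. Cish and Socs1 to Socs3 encode proteins that dampen the receptor signal, and Pim1 and Pim2 encode serine/threonine kinases that favour growth and survival of lymphocytes. STAT3 is the factor used by IL-6, IL-10 and IL-21, and Socs3 is one of its usual targets. In regulatory T cells (Treg), IL-2 and STAT5 are known to sustain Foxp3, the transcription factor that defines the lineage.

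The series has 2 experiments on CD4 T cells of C57Bl/6 mice, with 40 arrays in all, and they were analysed apart. In the sorted T cell experiment, CD4+ CD45RBlow GFP+ Treg and CD4+ CD45RBhi GFP- conventional T cells (Tconv) of Foxp3GFP reporter mice were kept for 48 h in RPMI with 10% FBS. The 3 groups were Treg activated with antibodies to CD3 and CD28 (3 arrays), unstimulated "resting" Treg (3 arrays) and resting Tconv (2 arrays), so there is no activated Tconv group, and the labels name no added IL-2. In the ligand experiment, CD4+ CD45RBlo YFP+ Treg from spleen and lymph nodes carried Foxp3-YFPiCre alone (WT) or Nrp fl/fl x Foxp3-YFP-iCre (KO), in which the Foxp3-driven Cre deletes the receptor neuropilin-1. Every ligand culture, the controls included, received rhIL-2 at 100 U/mL, immobilised anti-CD3 at 1 µg/mL and soluble anti-CD28 at 2 µg/mL. The cultures differed in immobilised protein at 10 µg/mL, either the semaphorin-4a fusion protein Sema4a-Ig or mouse IgG1, with 8 arrays for each genotype and protein. The IL-2 pathway was therefore supplied with ligand in all 4 groups of that experiment. Whether replicates are separate mice or cultures is not given in the labels, and the p-values rest on the scatter among these arrays, part of which may be technical.

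The promoters of Cish and Socs3 are shown because both genes rose with Sema4a-Ig in WT Treg and because their windows were the 2 of 11 windows of these genes that held TTCNNNGAA, the core letters of a STAT5 and STAT3 motif. Each window is a RefSeq sequence of assembly GRCm38.p6 that runs from 250 bases before to 50 bases after a transcription start, and 8 of the 9 genes had at least 1 window. Cish lies at chr9:107296409-107296708 on the plus strand and Socs3 at chr11:117969317-117969616 on the minus strand. The capitals mark the motif matches, which are the same on both strands because the motif is a palindrome.
Cish: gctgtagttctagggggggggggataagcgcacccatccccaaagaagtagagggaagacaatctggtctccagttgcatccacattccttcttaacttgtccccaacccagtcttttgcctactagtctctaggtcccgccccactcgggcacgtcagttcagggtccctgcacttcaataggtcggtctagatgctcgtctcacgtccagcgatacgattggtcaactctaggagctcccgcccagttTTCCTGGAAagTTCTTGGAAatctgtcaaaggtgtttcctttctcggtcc
Socs3: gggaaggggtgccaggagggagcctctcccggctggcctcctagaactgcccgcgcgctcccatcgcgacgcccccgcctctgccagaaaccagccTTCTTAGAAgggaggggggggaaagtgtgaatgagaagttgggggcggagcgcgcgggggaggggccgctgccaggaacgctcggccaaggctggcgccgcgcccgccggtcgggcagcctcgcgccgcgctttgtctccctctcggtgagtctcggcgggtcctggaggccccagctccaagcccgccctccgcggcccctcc
The Cish window held TTCCTGGAA, whose first base is position 1 of the transcript, and TTCTTGGAA, whose first base is position 12, and the matches do not overlap. The Socs3 window held TTCTTAGAA, which begins 154 bases before the start. Of 32851 windows of the same length in the table, 8.3% held at least 1 match and 0.457% held 2 or more. A match describes the letters in these windows and was not tested as a binding site. No match was in the windows of Stat3, Stat5a, Stat5b, Socs1, Pim1 and Pim2.

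Several features of the arrays bear on the values. In the sorted arrays all 7 measured Treg markers were higher in both Treg groups than in Tconv, with adjusted p-values under 0.05, and Foxp3 had a mean log2 signal of 4.0 in Tconv, 10.44 in resting Treg and 10.81 in activated Treg. In the ligand arrays the mean Foxp3 signal was 3.55, under that of the brightest among 23 nonspecific control probe sets (3.95, with a median of 2.29). Foxp3 therefore does not check the Treg identity there. The other Treg markers had ligand means from 7.21 (Itgae) to 11.11 (Ikzf2). That experiment has no Tconv group to set them against, so the Treg identity rests on the labels. The 9 genes themselves had means of at least 6.54 in the ligand arrays. The 3′ minus 5′ signal of Actb, a measure of how well the 5′ end of a transcript was labelled, lay between 1.24 and 2.67 in 5 sorted arrays and between 5.87 and 6.17 in activated Treg replicates 1 and 2 and resting Treg replicate 1. Of 9 B cell markers, Cd79b (log2 difference 2.85), Ighm (0.77) and Cd79a (0.73) passed with higher signal in resting Treg than in Tconv, and the other 6 did not pass. Among these, Pax5 (0.14), Cd22 (0.43) and Ebf1 (-0.34) differed least. Mean signals in Tconv and resting Treg were 3.99 and 5.45 for Ms4a1, 4.5 and 5.32 for Blk, and 4.37 and 5.14 for Fcrla. In all, 8 of the 9 markers were higher in resting Treg, with a median difference of 0.77. Their summed linear signal, most of it from Ighm, was 7427 to 8130 in Tconv, 12463 to 13806 in resting Treg and 12205 to 14184 in activated Treg. Of 9 CD8 and NK markers, Klrd1 alone passed, with means of 12.03 in Tconv and 7.30 in resting Treg. It makes up most of the list's sum in Tconv (4520 to 4645), but not in Treg, where the sum was 298 to 538. Cd8a had a mean of 5.2 in both groups. Genes for MHC class II or dendritic cells did not pass between resting Treg and Tconv, but 7 of 8 were higher. The log2 differences were 2.63 for H2-Aa and 2.09 for Cd74. Their summed signal was 336 to 350 in Tconv, 606 to 2922 in resting Treg and 699 to 1694 in activated Treg. Among 16 myeloid markers, 11 were higher and 5 lower in resting Treg, and Cybb alone passed (2.54). S100a8 ran from 4.1 to 11.29 in activated Treg. The part of these differences in the results below was not tested. In bulk samples, fewer cells of a type and less RNA per cell cannot be told apart. In the ligand experiment, each probe set had the same mean in all 16 pairs of 1 Sema4a-Ig and 1 IgG1 array with neighbouring title codes, within 3e-05. Differences in level between the genotypes had thus been removed before deposit, so the level of Nrp1 cannot check the genotype labels, and the results there are Sema4a-Ig minus IgG1 differences within pairs. The Sema4a-Ig array of WT pair 2 has a title that says WT and a genotype label that says Nrp fl/fl, and it was kept under its title.

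Resting Treg were compared with resting Tconv to ask how the 2 sorted groups differ without stimulation. The groups differed in lineage and also in the CD45RB gate (low in Treg, high in Tconv), and these cannot be told apart here. Resting Treg had 4.47-fold more Cish and 5.29-fold more Stat5a signal than Tconv, and Socs2 was higher by 3.20 on the log2 scale. They had 2.13-fold less Socs1, 2.12-fold less Socs3 and 4.03-fold less Pim2. Stat3, Stat5b and Pim1 did not pass the test. Thus 6 of the 9 genes passed, 3 in each direction, where 5.54% of the 18193 genes tested passed (3.87% higher and 1.67% lower). The median difference of the 9 genes was 0.71 on the log2 scale, against 0.01 for all genes.

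Among the STAT genes, the largest difference was in Stat5a, which encodes 1 of the 2 STAT5 proteins. Its log2 signal was 6.83 and 7.02 in the Tconv arrays, 9.66, 8.81 and 9.52 in resting Treg, and 10.47, 9.62 and 8.41 in activated Treg. Both Tconv arrays were below every Treg array, and the spread within activated Treg (SD 1.03, n = 3) was wider than within resting Treg (SD 0.45, n = 3). Resting Treg exceeded Tconv by 2.40 ± 0.53 (log2 difference ± SE, limma adjusted p = 0.0377). This call belongs to 1 of 2 Stat5a probe sets. The other, dimmer one differed by 0.25 (adjusted p = 0.821), and the mean of both by 1.33 (adjusted p = 0.0822).

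Stat5b, the second STAT5 gene, had signals of 11.09 and 11.03 in Tconv, 11.74, 11.73 and 11.84 in resting Treg, and 11.46, 11.04 and 11.32 in activated Treg. The 3 resting Treg arrays stood above all other arrays, and the activated Treg arrays overlapped those of Tconv. Resting Treg exceeded Tconv by 0.71 ± 0.17, just short of the threshold (adjusted p = 0.0525). With weights on the arrays the adjusted p was 0.00697, and with the Actb class of the arrays as a block it was 0.0395.

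Stat3 did not separate resting Treg from Tconv. Its signals were 9.53 and 9.54 in Tconv, 9.43, 9.30 and 10.20 in resting Treg, and 9.95, 9.85 and 9.60 in activated Treg. The resting Treg arrays lay on both sides of the Tconv arrays. The difference was 0.11 ± 0.27 (adjusted p = 0.904), with a 95% interval from -0.51 to 0.73.

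The inhibitors divided in direction, with Cish and Socs2 higher and Socs1 and Socs3 lower in Treg. Cish encodes CIS, an SH2-domain inhibitor known as an early STAT5 target. Its signals were 6.21 and 6.35 in Tconv, 8.17, 8.31 and 8.84 in resting Treg, and 8.82, 9.46 and 8.99 in activated Treg. Every Treg array was above both Tconv arrays. Resting Treg exceeded Tconv by 2.16 ± 0.26 (adjusted p = 0.00236), and this call held with each array left out in turn (adjusted p from 0.00342 to 0.0452).

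Socs2 encodes a SOCS protein best known for limiting growth hormone signalling through STAT5. It had signals of 3.92 and 3.89 in Tconv, 6.02, 7.28 and 8.01 in resting Treg, and 8.14, 8.55 and 8.83 in activated Treg. The 3 groups did not overlap, in the order Tconv, resting Treg, activated Treg. Resting Treg exceeded Tconv by 3.20 ± 0.50 (adjusted p = 0.00857). A second Socs2 probe set of similar brightness gave 2.33 (adjusted p = 0.0201), while the 4 dimmer ones did not pass, with differences from 0.04 to 1.2. The adjusted p for the mean of all 6 was 0.0667. The Tconv signal was low, and whether it was above background was not tested, so no fold is given for Socs2 against Tconv.

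Socs1, whose product binds and inhibits JAK kinases, had signals of 5.83 and 5.35 in Tconv, 4.58, 4.65 and 4.27 in resting Treg, and 4.55, 4.38 and 4.62 in activated Treg. Both Tconv arrays were above all 6 Treg arrays. The log2 difference between resting Treg and Tconv was -1.09 ± 0.20 (adjusted p = 0.0195). This was the only Socs1 probe set and it was dim in every array, below the median of all genes (5.76) in all but 1 of the 8.

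Socs3, an inhibitor of receptors that contain gp130 such as that of IL-6, had signals of 9.64 and 9.90 in Tconv, 8.49, 8.62 and 8.95 in resting Treg, and 8.25, 8.65 and 8.28 in activated Treg. Both Tconv arrays were above all Treg arrays. The log2 difference between resting Treg and Tconv was -1.08 ± 0.21 (adjusted p = 0.0219). The call belongs to 2 of 3 probe sets, both of the "_x_at" class, which by its naming can also bind other transcripts. The third differed by -0.44 (adjusted p = 0.72).

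Of the PIM kinases, Pim2 was lower in Treg and Pim1 did not pass. Pim2 had signals of 8.14 and 8.12 in Tconv, 5.83, 6.57 and 5.97 in resting Treg, and 6.42, 6.71 and 7.48 in activated Treg. Every Treg array was below both Tconv arrays, and the log2 difference was -2.01 ± 0.33 (adjusted p = 0.0111). Pim1 had signals of 11.29 and 10.94 in Tconv, 12.11, 11.75 and 11.66 in resting Treg, and 12.63, 12.04 and 11.15 in activated Treg. Resting Treg did not overlap Tconv but the difference was 0.72 ± 0.39 (adjusted p = 0.392), with a 95% interval from -0.16 to 1.61. In all, resting Treg and Tconv did not overlap for 8 of the 9 genes, and with groups of 3 and 2 arrays this held for 42% of all genes.

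Only 2 Tconv arrays carry these comparisons. Without replicate 1 or replicate 2 of Tconv, 1 of the 9 genes passed, and that gene was Cish in both cases. Over all 18193 genes the calls fell as well, from 1008 to 242 and 288. The log2 differences themselves moved little: without 1 array at a time, Socs2 ranged from 2.75 to 3.74, Stat5a from 2.24 to 2.66 and Pim2 from -2.23 to -1.86. Single Treg arrays mattered for 2 calls as well. Stat5a did not pass without resting Treg replicate 1 (adjusted p = 0.0901) or 3 (0.0754), or activated Treg replicate 2 (0.0721). With quantile normalisation its adjusted p was 0.0713. Socs3 did not pass without resting Treg replicate 1 (adjusted p = 0.0573) or 2 (0.0616). Within the 5 arrays of low Actb 3′ minus 5′ signal, 4 of the 9 passed. Socs1 (log2 difference -1.13, adjusted p = 0.0744) and Socs3 (-0.99, adjusted p = 0.0621) did not.

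**Figure D1:**
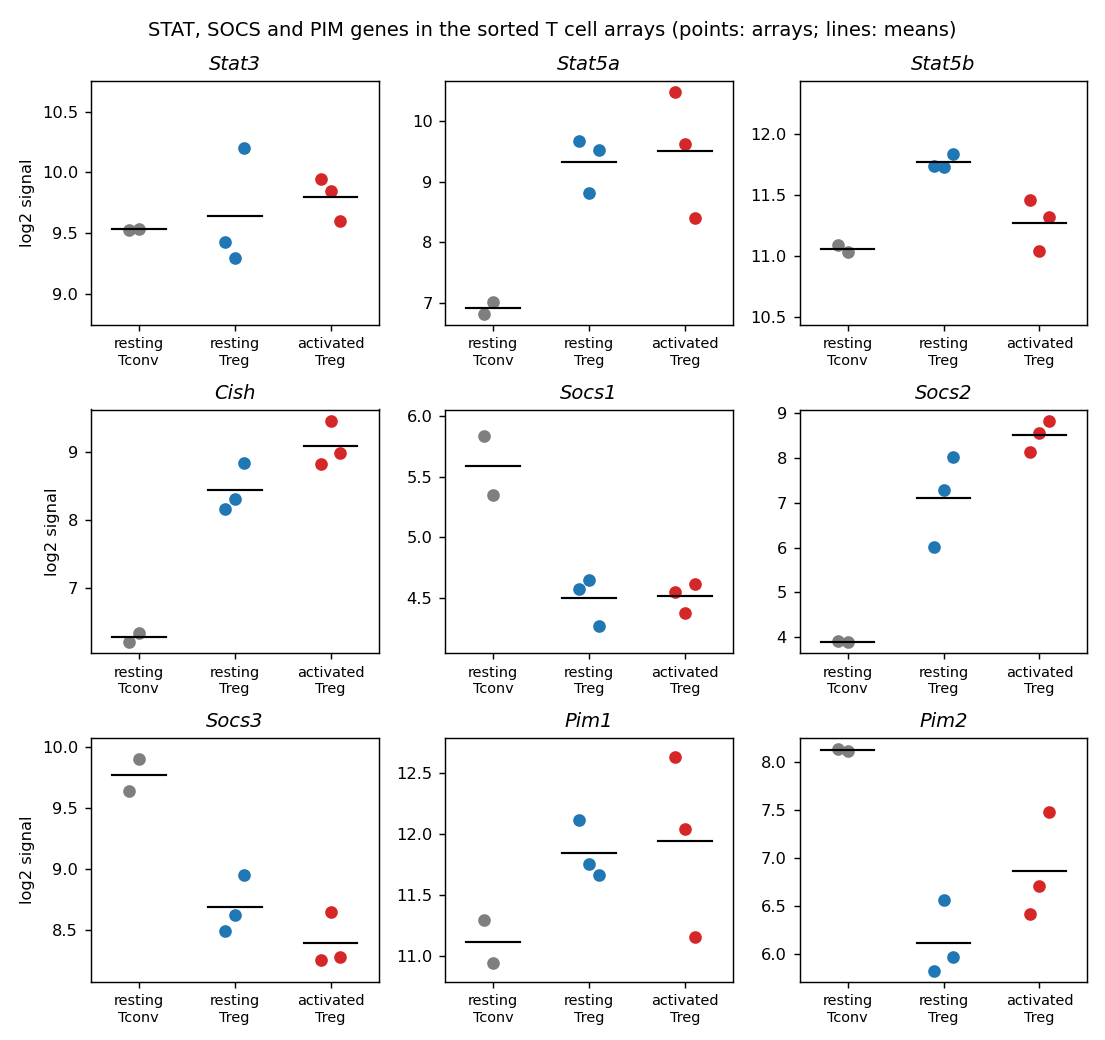
Log2 signal of each gene on the vertical axis in the 8 sorted arrays, with 1 point per array, a line at each group mean and a separate scale in each panel. Cish, Socs2 and Stat5a are higher in both Treg groups than in Tconv, with Socs2 at 3.92 and 3.89 in Tconv and from 6.02 to 8.83 in Treg, and Socs1, Socs3 and Pim2 are lower.

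Activated and resting Treg were compared to ask what stimulation changed. None of the 9 genes passed the adjusted threshold in limma, where 0.742% of all genes did. At an unadjusted p under 0.05 there were 4 genes of 9, where 11.5% of all genes had such a p. These 4 were Socs2, Cish and Pim2 with higher signal and Stat5b with lower signal after activation.

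Socs2 had the largest difference, 1.41 ± 0.45 (adjusted p = 0.239), with a 95% interval from 0.38 to 2.43, and the 3 activated arrays were all above the 3 resting arrays. Stat5b was the only other gene without overlap, with a difference of -0.49 ± 0.15 (adjusted p = 0.225). Of all genes 13% did not overlap between these groups. Cish differed by 0.65 ± 0.23 (adjusted p = 0.312) and overlapped by 1 array, since the lowest activated value (8.82) was below the highest resting value (8.84). Pim2 differed by 0.74 ± 0.30 (adjusted p = 0.376). The other 5 genes differed by -0.29 to 0.17, with adjusted p-values of at least 0.641. For Stat5a and Pim1 the intervals were wide, from -0.91 to 1.25 and from -0.69 to 0.90.

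The Actb 3′ minus 5′ signal divides these 6 arrays as well, with 2 high arrays among the activated Treg and 1 among the resting Treg. With that class as a block, Socs2 passed at a difference of 1.76 (adjusted p = 0.0409), and Stat5a and Pim1 turned to -0.18 and -0.16. With weights on the arrays 3 of the 9 passed, Cish (0.94), Socs2 (1.35) and Stat5b (-0.63).

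Activated Treg were also set against resting Tconv, a comparison in which lineage, CD45RB gate and stimulation differ together. It shares its arrays with the 2 above. Here 5 of the 9 genes passed, 3 higher and 2 lower, where 9.7% of all genes did (5.93% higher and 3.77% lower). Socs2 had a log2 difference of 4.61 ± 0.50 (adjusted p = 0.00092), measured against the same low Tconv signal. Cish was 7.01-fold higher (2.81 ± 0.26, adjusted p = 0.00044). Stat5a was also higher, by 2.57 ± 0.53 (adjusted p = 0.0187). Its other, dimmer probe set differed by 0.19 (adjusted p = 0.856). In the low Actb class, where activated Treg replicate 3 alone stands for its group, the Stat5a difference was 1.49. Socs1 (log2 difference -1.07 ± 0.20, adjusted p = 0.0139) and Socs3 (-1.38 ± 0.21, adjusted p = 0.00516) were lower. The Socs3 probe set outside the "_x_at" class differed by -0.37 (adjusted p = 0.749). Pim2 just missed the threshold, at -1.26 ± 0.33 (adjusted p = 0.0507). Without Tconv replicate 1, Tconv replicate 2 or activated Treg replicate 2, 3 of the 9 genes passed. Cish (adjusted p up to 0.0111) and Socs2 (up to 0.0171) passed whichever array was left out.

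The rest of the pathway was taken from lists of IL-2 family receptors and JAKs, other STAT, SOCS and PIM genes, other brakes, genes that IL-2 and STAT5 induce or repress, and STAT3 receptors and targets. Between resting Treg and Tconv, 5 of 13 measured receptor and JAK genes passed, 3 higher and 2 lower, with a list median of 0.18 on the log2 scale. Il2ra, the receptor chain that gives high affinity for IL-2, was higher by 5.49 ± 0.33 (adjusted p = 7.9e-05). Il2rb, the signalling chain shared with IL-15, was higher by 2.98 ± 0.28 (adjusted p = 0.000643), and Il15ra by 2.11 ± 0.23 (adjusted p = 0.00131). The cytokine gene Il2 (-0.85 ± 0.18, adjusted p = 0.0303) and the IL-7 receptor chain Il7r (-0.77 ± 0.15, adjusted p = 0.021) were lower in Treg. The JAK genes of the IL-2 receptor did not pass, with -0.93 for Jak1 (adjusted p = 0.0833) and 0.44 for Jak3 (adjusted p = 0.541). Il2rg was not analysed here.

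Of 8 other STAT, SOCS and PIM genes measured, Socs5 alone passed, with means of 8.45 in Tconv and 10.20 in resting Treg (difference 1.74 ± 0.24, adjusted p = 0.00474). Of 12 other brakes, Pias1 (-1.54, adjusted p = 0.0342) and Pias2 (-1.22, adjusted p = 0.0304) fell, both coding for proteins that restrain STAT factors. Of 16 genes that IL-2 and STAT5 are known to induce, 6 were higher and 1 was lower in resting Treg, and the median difference was 0.67. Of all genes 3.87% were higher and 1.67% lower. Foxp3 (6.44), Ctla4 (6.20), Il2ra, Tnfrsf4 (2.53) and Tnfrsf18 (2.00) are also classical Treg genes. Cells were sorted on the Foxp3 reporter, so the gate itself set the Foxp3 difference. The count is therefore no separate readout of IL-2 signalling. The lower gene was Myc, a growth regulator (-2.40, adjusted p = 0.0354). Of 4 genes that IL-2 represses, Il7r fell. Of 14 STAT3 receptors and targets, Maf (4.75), Rora (3.63), Bcl3 (2.44) and Hif1a (1.35) rose and none fell.

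With activation of Treg, 2 of the 16 STAT5-induced genes rose and no gene of the other 5 lists passed. Ccnd2, a cyclin of the early cell cycle, rose by 1.39 ± 0.18 (adjusted p = 0.0192), and Il10, an inhibitory cytokine, by 3.34 ± 0.47 (adjusted p = 0.0268). Il2ra differed by 1.59 ± 0.29 (adjusted p = 0.0605) and Il2rb by 1.34 ± 0.25 (adjusted p = 0.0615). Il2 differed by 0.23 (adjusted p = 0.662), Jak1 by -0.42 (adjusted p = 0.569) and Jak3 by 0.22 (adjusted p = 0.835).
Between activated Treg and Tconv, 10 of the 16 induced genes were higher and 2 were lower, where 5.93% of all genes were higher and 3.77% lower. The 10 include Foxp3, on which the cells were sorted. Of the 4 repressed genes, 2 were lower, Il7r and Il6ra. The other 2 were higher, Bcl6 (means of 8.94 in Tconv and 10.06 in activated Treg) and Il6st (10.89 and 12.06). Of 14 STAT3 receptors and targets, 5 were higher and 1 was lower. Of the receptor and JAK genes, Il2ra (7.07), Il2rb (4.32), Il15ra (1.89) and Tyk2 (0.68) were higher, and Jak1 (-1.35) and Il7r (-1.33) were lower. Socs5 was higher by 1.32, and Pias1 (-1.61) and Pias2 (-0.97) were lower.

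**Figure D2:**
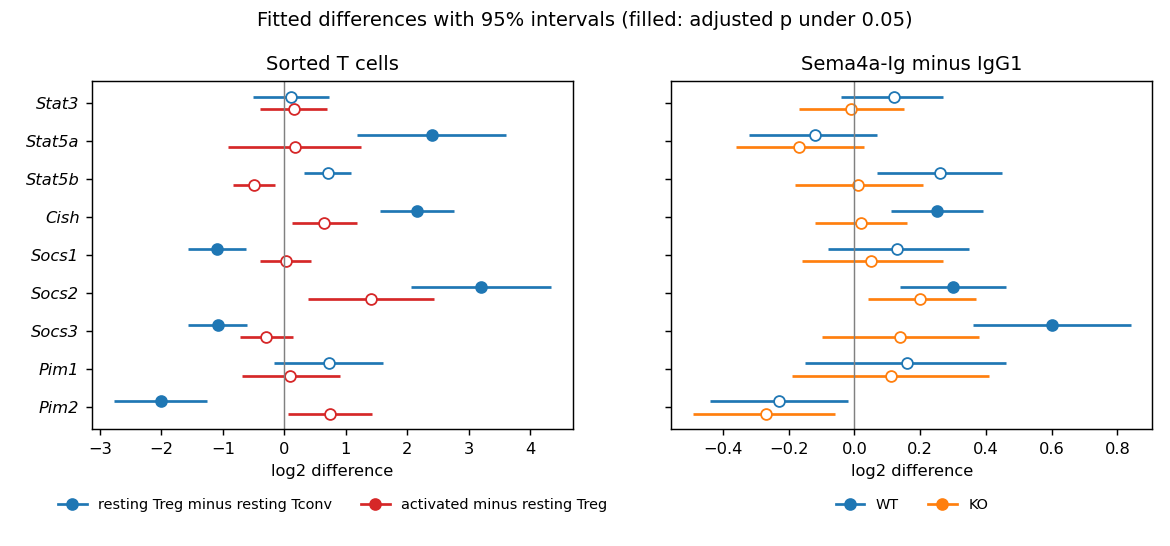
Log2 differences on the horizontal axis with 95% intervals for each gene, in the sorted experiment (left) and for Sema4a-Ig minus IgG1 in the ligand experiment (right), with filled points where the adjusted p is under 0.05. Resting Treg against Tconv has 6 filled points and Sema4a-Ig in WT has 3 (Cish, Socs2 and Socs3), while activation and Sema4a-Ig in KO have none.

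The ligand experiment asked how Treg that receive IL-2 and receptor stimulation respond when Sema4a-Ig, a ligand linked to neuropilin-1 in the series title, is added. In WT Treg the 3 inhibitors Cish, Socs2 and Socs3 rose with Sema4a-Ig, each in 8 of 8 pairs. Socs3 rose 1.51-fold, Socs2 1.23-fold and Cish 1.19-fold. Thus 3 of 9 genes passed, where 5.79% of the 17097 genes tested passed (2.91% higher) and 7.39% had all 8 pairs of 1 sign. That share includes dim genes, while all 9 genes were above the median level of 4.55. When only the 8548 genes above the median were tested, 1654 of them passed, 696 higher and 958 lower. In that setting Stat5b passed as well (limma adjusted p = 0.0498). The median difference of the 9 genes was 0.16, against -0.01 for all genes.

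The 8 WT pair differences of Socs3 ranged from 0.11 to 1.28 on the log2 scale with a median of 0.49. Pairs 1 and 7, at 1.28 and 1.22, stood above the other 6, which lay between 0.11 and 0.65. The mean was 0.60 ± 0.12 (SE, adjusted p = 0.00488), with a 95% interval from 0.36 to 0.84. The call held with each pair left out (differences from 0.50 to 0.67, adjusted p up to 0.0235). Only 1 Socs3 probe set was measured there, and it is the one that did not pass between resting Treg and Tconv in the sorted arrays.

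Cish pair differences ranged from 0.09 to 0.45 with a median of 0.20, and were highest in pairs 1, 2 and 3 (0.40, 0.45 and 0.37). The mean was 0.25 ± 0.07 (adjusted p = 0.0314). Without pair 1, 2, 3 or 7 it was 0.22 to 0.25 and did not pass, with an adjusted p of 0.0713, 0.0705, 0.104 and 0.0664. Socs2 pair differences ranged from 0.08 to 0.53 with a median of 0.30, and were highest in pair 3. The mean was 0.30 ± 0.08 (adjusted p = 0.0281). Without pair 2, 3, 7 or 8 it was 0.26 to 0.29 and did not pass, with an adjusted p of 0.0599, 0.105, 0.0789 and 0.0578. Pair 2 is the one whose Sema4a-Ig array has a genotype label of Nrp fl/fl against its WT title. Without that pair neither Cish nor Socs2 passed, and Socs3 was the only 1 of the 9 genes that did. For all 3 genes an exact sign-flip test over the 8 pairs gave p = 0.00781, the smallest that 8 pairs can give. Any gene with all 8 pairs of 1 sign has this p, so it adds nothing to the 8 of 8 counts. Of the other 3 Socs2 probe sets, 1 gave 0.28 and passed (adjusted p = 0.0188), and the dimmer ones gave 0.29 (adjusted p = 0.207) and 0.47 (adjusted p = 0.104).

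The STAT and PIM genes did not pass in WT. Stat5b had pair differences from -0.23 to 0.91 with a median of 0.21, positive in 7 of 8, with a single high value in pair 1. Its mean was 0.26 ± 0.09 (adjusted p = 0.102). Stat3 differed by 0.12 ± 0.08 (adjusted p = 0.418) and was positive in 5 of 8 pairs. Stat5a differed by -0.12 ± 0.09 (adjusted p = 0.511) and was negative in 6 of 8 pairs, the opposite sign to Stat5b. Socs1 differed by 0.13 ± 0.10 (adjusted p = 0.511), with pair differences from -0.20 to 0.65.
The PIM kinases varied in sign between pairs. Pim1 ranged from -0.75 to 0.81 (mean 0.16 ± 0.15, adjusted p = 0.603), and Pim2 from -0.82 to 0.28 (mean -0.23 ± 0.10, adjusted p = 0.198). The pair with the highest Pim1 difference, pair 3, had the lowest Pim2 difference, and the pair with the lowest Pim1 difference, pair 2, had the highest for Pim2.

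Marker lists moved with Sema4a-Ig in WT as well. Of 7 Treg markers 2 rose, and their mean difference per pair ran from 0.01 to 0.24, positive in 8 of 8 pairs. The myeloid list includes Ctss, which also had high means in the sorted Tconv (12.72) and resting Treg (12.67), so not every gene on it marks another cell type here. Of 16 myeloid markers, 14 had positive WT differences and 3 rose, and their mean difference per pair ran from -0.18 to 0.58, positive in 6 of 8 pairs. In KO it ran from -0.20 to 0.34, positive in 4 of 8. With this mean as a covariate the WT differences were 0.25 for Cish (adjusted p = 0.312), 0.22 for Socs2 (adjusted p = 0.434) and 0.46 for Socs3 (adjusted p = 0.243), and no gene of the whole table passed.

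In KO Treg none of the 9 genes passed, and none of the 17097 genes did (0%). At an unadjusted p under 0.05 limma had 2 genes of 9, Socs2 and Pim2, and 10.5% of all genes. Cish pair differences lay between -0.10 and 0.18 with a median of 0.01, 4 of 8 positive, and the mean was 0.02 ± 0.07 (adjusted p = 0.934, 95% interval from -0.12 to 0.16). Socs3 lay between -0.13 and 0.55 with a median of 0.13, 6 of 8 positive, and the mean was 0.14 ± 0.12 (adjusted p = 0.672, 95% interval from -0.10 to 0.38). Pairs without a positive difference were thus seen in KO for both genes, while all 8 WT values of both were above 0.

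Socs2 and Pim2 had KO means close to those in WT. Socs2 ranged from -0.09 to 0.58 with a median of 0.19, positive in 7 of 8 pairs, and its mean was 0.20 ± 0.08 (adjusted p = 0.411). The exact sign-flip p for Socs2 was 0.0312. Pim2 ranged from -0.53 to 0.09 with a median of -0.29, negative in 7 of 8 pairs, and its mean was -0.27 ± 0.10 (adjusted p = 0.409). The exact sign-flip p for Pim2 was 0.0156. The sign-flip test was run on 9 genes in each genotype and had an unadjusted p under 0.05 for 3 genes in WT and 2 in KO.
The STAT genes had small KO means of -0.01 (Stat3), -0.17 (Stat5a) and 0.01 (Stat5b). Socs1 had a mean of 0.05, and Pim1 of 0.11 with 7 of 8 pairs positive and pair 1 at -0.91.

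Whether the response depended on genotype was tested as the difference between the KO and WT means. No gene of the 9, and none of all genes (0%), passed after adjustment, and 2 of the 9 (Socs3 and Cish) had an unadjusted limma p under 0.05, as did 5.94% of all genes. The difference was negative for all 9 genes, with a median of -0.09 against 0.00 for all genes. This does not mean a weaker response in KO for each gene. Stat5a (-0.12 in WT, -0.17 in KO) and Pim2 (-0.23 in WT, -0.27 in KO) had slightly lower means in KO. For Stat5a, Socs1, Pim1 and Pim2 the sign of the difference turned under some alternatives. Whether the shared sign exceeds chance was not tested. For Socs3 it was -0.46 ± 0.16 (adjusted p = 0.782), with a 95% interval from -0.80 to -0.12. For Cish it was -0.23 ± 0.09 (adjusted p = 0.83), with a 95% interval from -0.42 to -0.03. An exact permutation of the genotype labels over the 16 pairs (12870 splits, two-sided), added after the values were seen and run on 9 genes, gave p = 0.00155 for Cish, 0.0169 for Socs3, 0.0713 for Stat5b and at least 0.18 for the other 6. For Socs2 the difference was -0.09 ± 0.11 (adjusted p = 0.956), with a 95% interval from -0.32 to 0.13. For Pim2 it was -0.04 (adjusted p = 0.99).

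Averaged over both genotypes, which uses the same pairs, 3 of 9 genes passed, 2 higher and 1 lower, where 9.55% of all genes did (3.63% higher and 5.93% lower). Socs3 (0.37 ± 0.08, adjusted p = 0.0092) and Socs2 (0.25 ± 0.05, adjusted p = 0.00865) rose, and Pim2 fell (-0.25 ± 0.07, adjusted p = 0.0322). Cish did not pass (0.13 ± 0.05, adjusted p = 0.0736). Without 1 pair at a time, Pim2 ranged from -0.29 to -0.21 with an adjusted p from 0.0183 to 0.0693. With the myeloid marker mean as a covariate none of the 3 passed, at 0.21 for Socs2 (adjusted p = 0.0784), 0.30 for Socs3 (adjusted p = 0.0841) and -0.18 for Pim2 (adjusted p = 0.216).

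**Figure D3:**
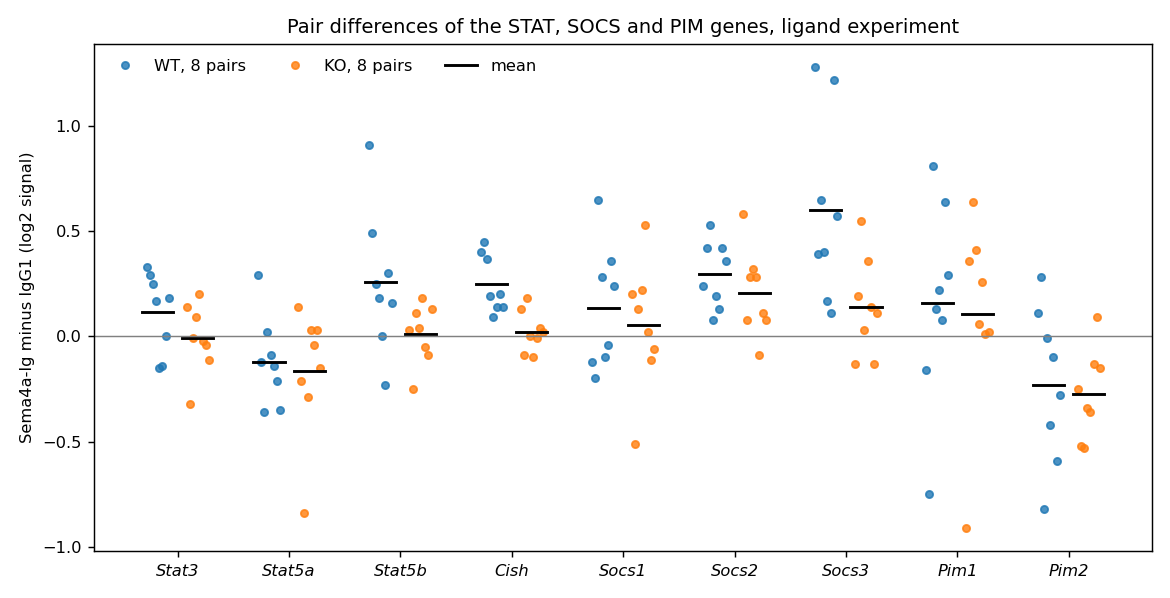
Sema4a-Ig minus IgG1 difference in log2 signal on the vertical axis for each gene, with 1 point for each of 8 WT and 8 KO pairs and a line at each mean. All WT points of Cish, Socs2 and Socs3 are above 0, and WT pairs 1 and 7 of Socs3 stand highest, at 1.28 and 1.22.

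In the rest of the pathway, Sema4a-Ig moved single genes in WT. Of 12 receptor and JAK genes measured, Il2rb rose by 0.30 ± 0.08 (adjusted p = 0.0286), in 8 of 8 pairs, and Il21r, the IL-21 receptor, fell (-0.41 ± 0.09, adjusted p = 0.0163). Il2ra differed by 0.09 ± 0.08 (adjusted p = 0.579). Il2 differed by -0.54 ± 0.19 (adjusted p = 0.0867), Jak1 by 0.21 ± 0.08 (adjusted p = 0.145) and Jak3 by -0.10 (adjusted p = 0.763). Of 8 other STAT, SOCS and PIM genes, Stat4, the IL-12 factor, rose by 0.29 ± 0.08 (adjusted p = 0.0394). Of 12 other brakes, Pias1 rose by 0.29 (adjusted p = 0.0458).

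Of 15 STAT5-induced genes measured, 1 rose and 2 fell in WT, with a median of -0.06. Bcl2, which protects cells from death, rose by 0.62 ± 0.10 (adjusted p = 0.000958). Its relative Bcl2l1 (-0.39 ± 0.11, adjusted p = 0.0339) and the cytokine Lta (-0.41 ± 0.10, adjusted p = 0.018) fell. Of 3 measured genes that IL-2 is known to repress, Il6st, which encodes gp130, rose by 0.44 ± 0.08 (adjusted p = 0.00392) and Il6ra, its IL-6 binding partner, rose by 0.50 ± 0.13 (adjusted p = 0.0273). Both are also among 14 STAT3 receptors and targets, of which Il10rb rose too (0.36 ± 0.09, adjusted p = 0.0164). In KO and in the difference between genotypes no gene of these lists passed in limma. Il2rb had a KO mean of 0.14 (adjusted p = 0.529), Il2ra of -0.09 (adjusted p = 0.695) and Il2 of -0.07 (adjusted p = 0.919). Averaged over genotypes, Il2rb, Bcl2, Bcl6, Il6ra, Il6st, Pias1 and Cbl rose and Il21r, Bcl2l1, Lta, Pim3 and Ptpn11 fell.

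The 9 genes were then compared with each other over the 16 pair differences, in 36 gene pairs, and 4 had a Benjamini-Hochberg adjusted permutation p under 0.05 for Pearson's r. Stat5b and Stat3 moved together (r = 0.77, p = 0.00029, adjusted p = 0.0104, rho = 0.84 with adjusted permutation p = 0.00288, n = 16). This relation held within WT (r = 0.79, exact p = 0.0109, n = 8) and within KO (r = 0.71, exact p = 0.0479, n = 8), and r was 0.69 without the 2 farthest pairs. The 2 genes lie close together on chromosome 11, with Stat5a between them. Stat5a itself had r = 0.23 with Stat3 (adjusted permutation p = 0.561) and 0.26 with Stat5b (adjusted permutation p = 0.506). Whether position bears on these relations was not tested.
Stat5b went with Cish (r = 0.72, permutation p = 0.00113, adjusted p = 0.015, rho = 0.66 with adjusted p = 0.0461). It also went with Socs3 (r = 0.76, permutation p = 0.00125, adjusted p = 0.015, rho = 0.74 with adjusted p = 0.0152). Both relations were seen within WT, with r = 0.77 (exact p = 0.0126) for Cish and 0.76 (exact p = 0.025) for Socs3. Within KO they were not, with r = 0.26 (exact p = 0.544) and 0.34 (exact p = 0.404). Without the 2 pairs farthest from the median of Stat5b, r was 0.60 and 0.63.
Pim1 and Pim2 moved in opposite directions (r = -0.71, permutation p = 0.00181, adjusted p = 0.0163, rho = -0.79 with adjusted p = 0.00516). Within WT r was -0.94 (exact p = 0.000397), within KO it was -0.39 (exact p = 0.346), and without the 2 farthest pairs it was -0.88. Stat5a and Pim1 had rho = -0.81 (adjusted permutation p = 0.00516) but r = -0.62 (adjusted p = 0.0794). All values of a pair come from the same 2 arrays, so array-wide shifts are shared by both genes.

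**Figure D4:**
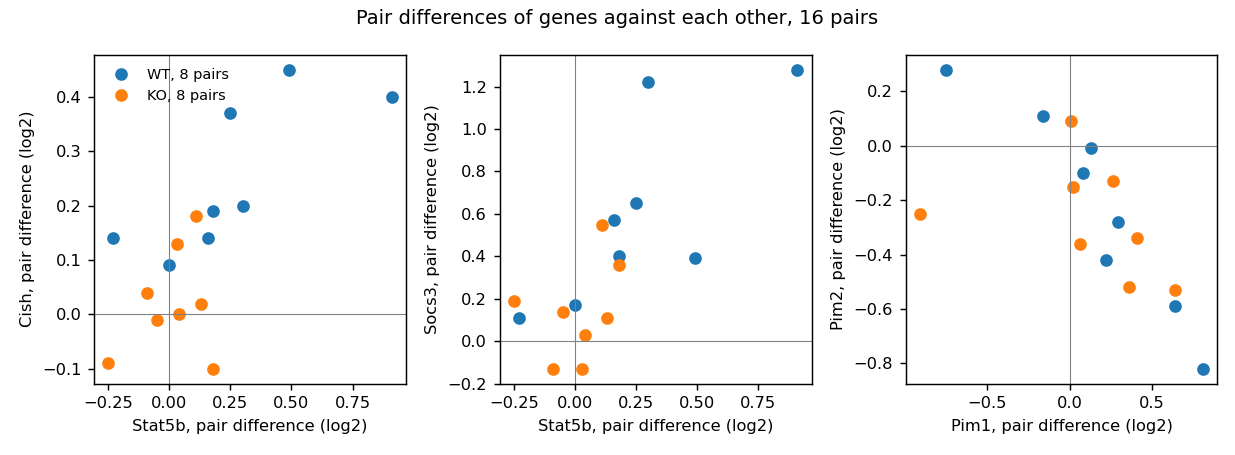
Pair differences in log2 signal of Stat5b against Cish (left), Stat5b against Socs3 (middle) and Pim1 against Pim2 (right), with 1 point per pair, blue for WT and orange for KO. No KO point is above 0.18 for Cish or 0.55 for Socs3, WT points extend to the upper right, and Pim2 falls as Pim1 rises among the WT points (r = -0.94).

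The genes whose 16 pair differences were most like those of Cish, among 17096 others, were Kat2b (r = 0.91), Vps4b (0.88) and Vezf1 (0.88). For Socs2 they were Lncpint (0.84), Abca7 (0.83) and Mef2d (0.82). For Pim1 they were Ubxn11 (0.90), Kif1c (0.86) and Wfdc21 (0.83). These are the highest of many correlations over arrays in common and are given as a description.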

How the data were processed

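The deposited values are log2 signal per probe set, made with RMA and Partek 6.6 per the submitters' processing notes. The mean log2 signal per array lay between 6.01221 and 6.01369 in the sorted and between 4.78287 and 4.8003 in the ligand experiment. Probe sets of several genes, unnamed ones and controls were left out. Symbols were updated through Entrez identifiers from RefSeq (GRCm38.p6), and each gene was represented by its probe set of highest mean signal, which left 18193 and 17097 genes. The number of arrays limits the precision.

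Genes were tested with limma 3.58.1 in R 4.3.3 (lmFit, eBayes, two-sided), with Benjamini-Hochberg adjustment over all genes and a threshold of 0.05. The 8 sorted arrays were fitted together, with a mean for each of the 3 groups and 5 residual degrees of freedom. The deposited values of each ligand pair share 1 mean, so the 16 pair differences were fitted with a mean per genotype (14 residual degrees of freedom). Pairs are arrays of neighbouring title codes. The fit was tested on simulated data. Correlations used 100000 permutations. Alternatives were another normalisation, filter, prior, probe set, array weights, covariates, blocks, and each array or pair left out. The text gives all 9 genes, and from each pathway list the genes past the threshold, at most 6 by size, plus Il2, Il2ra, Il2rb, Jak1 and Jak3. The genes and lists were chosen with earlier results of these data known.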

Additional observations from a re-analysis of the deposited data

Results flagged for a closer look

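In KO the pair differences of Stat5a and Pim1 each had 1 pair far from the other 7. Stat5a was -0.84 in KO pair 3, and the next lowest value was -0.29, a gap of 0.561 of the whole range. Pim1 was -0.91 in KO pair 1, and the next lowest value was 0.01, a gap of 0.593 of the range. Both gaps exceeded Dixon's critical value for 8 values. Chance gives such a gap in about 1 group in 20, and 18 groups were tested.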

How the results depend on the processing

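Over 1302 values of single genes under alternatives, 1155 kept their direction and side of the threshold, 66 lost a call, 33 gained one and 48 changed sign, none of them with a call in either fit. The causes below were not tested unless the setting gives them. In the sorted arrays, 6 of the 9 genes passed between resting Treg and Tconv, 3 with the mean of all probe sets, and 1 to 7 with an array left out. For activation 0 passed, 3 with array weights, 1 with the Actb class as a block, and 0 with any array left out. For activated Treg against Tconv 5 passed, 3 in the low Actb class alone, and 3 to 7 with an array left out.

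Taking the paired arrays as independent, with no replicate block, 5 genes passed in WT, 2 in KO, 2 in their difference and 6 on average, against 3, 0, 0 and 3 on the pair differences. That fit ignores the shared pair means and its standard errors are too small. In the fit with no replicate block the difference between genotypes had an adjusted p of 0.0208 for Cish and 0.0315 for Socs3. The myeloid covariate left 0 genes in WT and 0 on average. With a pair left out the counts were 1 to 4 in WT (1 without WT pair 2, 3 or 7), 0 in KO, 0 for the difference and 2 to 3 on average. The exact permutation of genotype labels was added after seeing the data.

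Signs turned for these uncalled values. Resting Treg against Tconv: Stat3 -0.03 (array weights), -0.01 and -0.11 (other probe sets). Activation: Stat3 -0.15 (low Actb class) and -0.03 (probe set), Stat5a -0.18 (Actb block), -0.75 (low class) and -0.06 (probe set), Socs1 -0.14 (weights) and -0.05 (quantile normalisation), Socs2 -0.05 and Socs3 0.07 (probe sets), Pim1 -0.16 (block) and -0.55 (low class). Activated Treg against Tconv: Stat3 -0.14 (probe set). Sema4a-Ig in WT: Stat5b -0.01 (probe set) and Pim1 -0.04 (myeloid covariate). In KO: Stat5b -0.02 (mean of probe sets) and -0.05 (probe set). Difference between genotypes: Stat5a 0.13 (mean of probe sets), 0.06 (weights) and 0.30 (probe set), Socs1 0.03 and Pim1 0.16 (myeloid covariate), Pim2 0.06 (weights). Average: Stat3 -0.00 and Stat5b -0.03 (probe sets).

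With an array or pair left out, these ranges spanned 0. Resting Treg against Tconv: Stat3 -0.17 to 0.28. Activation: Stat3 -0.02 to 0.43, Stat5a -0.31 to 0.71, Socs1 -0.10 to 0.09, Pim1 -0.24 to 0.50. KO: Stat3 -0.04 to 0.04, Stat5b -0.01 to 0.05, Cish -0.00 to 0.04, Socs1 -0.02 to 0.13. Difference: Stat5a -0.09 to 0.05, Socs1 -0.15 to 0.00, Pim1 -0.18 to 0.10, Pim2 -0.13 to 0.03.

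Over all genes, the calls between resting Treg and Tconv went from 1008 to 3005 with array weights and 1633 with the Actb block, those for activation from 135 to 946, 317, 24 (low class) and 216 (quantile), and those for activated Treg against Tconv from 1765 to 5889 (weights) and 871 (low class). In WT they went from 990 to 0 (myeloid covariate), 1654 (genes above the median) and 4417 (no replicate block). With no replicate block the calls rose from 0 to 1734 in KO, from 0 to 530 for the difference and from 1633 to 5243 on average, where the myeloid covariate left 176. With 1 array or pair left out the calls ranged from 242 to 1208 between resting Treg and Tconv (lowest without Tconv replicate 1), from 12 to 168 for activation (lowest without activated Treg replicate 1), from 433 to 2263 for activated Treg against Tconv (lowest without Tconv replicate 1), from 258 to 1328 in WT (lowest without WT pair 3) and from 1000 to 1642 on average (lowest without WT pair 3).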
